A study of Mus musculus with 8 samples.

Results

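Dnase1l3, Rnase6, Apol7c, BC028528 and Clec4b1 are 5 of the 13204 genes in an RNA sequencing table of mouse CD8 T cells sorted for or against FcgRIIB, an inhibitory Fc receptor that binds IgG. They were chosen by their measured difference between the groups: all 5 were among the 12 genes with the largest increase in FcgRIIB-positive libraries, and all passed the filter on low values. Their difference between the groups is therefore given as a description with no test. The cells were OT-I T cells, whose transgenic receptor recognises an ovalbumin peptide. Mice were given 1000000 of them, were grafted 24 hours later with skin that expresses ovalbumin, and gave their spleens on day 14. Each of 4 pools of 3 spleens gave 1 positive library (FcgRIIB+ CD44hi Thy1.1+ CD8+) and 1 negative library (FcgRIIB- CD44hi Thy1.1+ CD8+), each of 1000 sorted cells, so every value comes from pooled animals and the groups are paired by pool. All 8 libraries share the cell transfer, the graft and the CD44hi, Thy1.1+ and CD8+ gates, and the recipients' strain and genotype are not stated in the sources at hand. No ungrafted or untransferred group is among the samples.

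Phagocytes take up dead cells and microbes and digest them, nucleic acids included, and dendritic cells present the products to T cells. Dnase1l3 codes for a secreted deoxyribonuclease that digests chromatin from dying cells and is made by dendritic cells and macrophages. Rnase6 codes for an antimicrobial ribonuclease of the RNase A family. Apol7c codes for an apolipoprotein L family protein linked to the phagosome membrane of cross-presenting dendritic cells, and Clec4b1 codes for the C-type lectin DCAR, an activating receptor of dendritic cells and macrophages that signals through the Fc receptor gamma chain. BC028528, a gene of little-known function, is the mouse counterpart of human C1orf54. None of the 5 is a classical T cell gene.

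The members differ in whether their letters are unique. Among the GENCODE M21 transcripts, Rnase6 shared none of its 50-base words with another gene and Dnase1l3 shared 0.137% of them. Of all words of Apol7c, 25.6% also occurred in some other gene and 15.9% in Gm8221, its neighbour in the apolipoprotein L cluster. Clec4b1 shared 8.68% with Clec4a2, a neighbouring lectin gene. BC028528 shared 43.2% with C920021L13Rik, a gene that lies across it on the opposite strand. The sources used here do not say whether counting used strand, so reads of BC028528 and C920021L13Rik cannot be told apart and the values of BC028528 are uncertain. The shared words of Apol7c and Gm8221, and of Clec4b1 and Clec4a2, lie on the same strand, so those values are in part uncertain whatever the strand setting.

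The members share the difference between groups that they were chosen for, though not their order among positive libraries, and the sequence before their start sites is shown for that shared difference. RefSeq (GRCm38.p6) gave a start for 4 members: 1 each for Apol7c and Clec4b1, 2 for BC028528 and 3 for Rnase6. The 250 bases before the start listed first are printed 5′ to 3′ on the strand of the gene. Capitals mark, on either strand, the core of the site of PU.1 (GAGGAA), an ETS factor of myeloid cells, and a paired IRF site (GAAANNGAA), the kind of site that interferon regulatory factors such as IRF8 bind. The windows are chr14:51128814-51129063 (plus strand) for Rnase6, chr15:77533316-77533565 (minus strand) for Apol7c, chr3:95892063-95892312 (minus strand) for BC028528 and chr6:123049712-123049961 (plus strand) for Clec4b1.
Rnase6: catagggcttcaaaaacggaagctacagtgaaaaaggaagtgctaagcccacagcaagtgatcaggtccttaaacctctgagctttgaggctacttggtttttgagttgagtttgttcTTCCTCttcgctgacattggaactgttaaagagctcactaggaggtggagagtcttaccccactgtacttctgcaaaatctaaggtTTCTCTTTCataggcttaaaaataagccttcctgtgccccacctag
Apol7c: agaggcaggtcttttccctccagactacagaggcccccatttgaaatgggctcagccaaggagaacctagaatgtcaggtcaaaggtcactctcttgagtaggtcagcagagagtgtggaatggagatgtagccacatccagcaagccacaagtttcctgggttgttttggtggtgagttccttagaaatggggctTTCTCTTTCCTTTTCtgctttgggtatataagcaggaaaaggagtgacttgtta
BC028528: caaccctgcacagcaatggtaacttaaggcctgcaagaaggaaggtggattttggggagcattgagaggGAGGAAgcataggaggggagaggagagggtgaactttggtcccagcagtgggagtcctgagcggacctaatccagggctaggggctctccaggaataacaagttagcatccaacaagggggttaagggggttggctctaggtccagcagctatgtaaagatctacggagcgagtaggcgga
Clec4b1: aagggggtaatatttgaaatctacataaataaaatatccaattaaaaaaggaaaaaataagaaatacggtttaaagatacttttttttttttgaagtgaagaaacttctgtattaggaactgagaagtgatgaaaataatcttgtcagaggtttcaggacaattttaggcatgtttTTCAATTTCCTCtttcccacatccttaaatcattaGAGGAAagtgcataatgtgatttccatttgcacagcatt
In these windows an IRF pair was found before Rnase6 (starting 46 bases before the start site), Apol7c (54 and 48 bases before, overlapping) and Clec4b1 (74 bases before). Of the other starts of Rnase6, 1 lies close by and has the same matches, and the other, farther upstream, has neither an IRF pair nor a PU.1 core. The letters of the IRF pair occur in 8.56% of all 32851 promoter windows of 300 bases in the table. The PU.1 core occurred 132 bases before the start of Rnase6 and 181 bases before that of BC028528. The window of the other start of BC028528 lacks that copy and has a different one, 15 bases before the start. Before Clec4b1 the core occurred 68 and 39 bases before the start, where the first copy overlaps the IRF pair. The PU.1 core is in 28.3% of all windows. The ETS-IRF composite (GGAANNGAA, in 8.24% of windows) and the AP-1 site (TGANTCA, in 7.81%) were in none of the members' windows, which says only that these letters are not there. These matches are letters in a window and were not tested for binding or effect.

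RPKM (reads per kilobase of exon and per 1000000 reads) is per length, which allows levels of genes to be set side by side. Here such levels still depended on exon length in a way that differed between pools, as shown after the members' values. Depth, recovered from the steps that 1 read makes in low values, was 3060000 to 22010000 reads per library, and pools 1 and 2 (at least 16470000) were deeper than pools 3 and 4 (at most 7360000) in both groups. Fcgr2b, which codes for the receptor used in the sort and is also made by dendritic cells, macrophages and B cells, ranged over 29.6 to 69.9 RPKM in the positive group and 1.82 to 4.82 RPKM in the negative one. Cd8a was at 153 to 239.5 and 165 to 330.4 RPKM, and the summed RPKM of 16 core T cell genes was 2234 to 4854 in positive and 5896 to 9480 in negative libraries. Their median log2 difference was -0.96, but limma called 0 of the 16 lower (6 at an unadjusted p under 0.05). With the pool of spleens in the fit, 8 were called lower. Markers of other spleen cells were present in both groups, and those of several cell types, dendritic cells, macrophages, monocytes and basophils among them, were higher in the positive libraries. The 10 markers of cross-presenting dendritic cells, among them Xcr1 and Clec9a, summed to 639 to 1243 RPKM in positive and 29.8 to 87.4 RPKM in negative libraries, with none at 0 in any library and all 10 called higher by limma (median log2 difference 3.88); the most abundant were Naaa (174 against 8.89 RPKM) and Irf8 (164 against 14.8 RPKM). For 8 pan dendritic cell and class II genes the sums were 9212 to 12815 against 525 to 1963 RPKM (7 of 8 higher, median 3.59), led by Cd74 and H2-Ab1. For 12 red pulp macrophage genes, led by C1qb and C1qc, they were 999 to 1670 against 104 to 390.4 RPKM (9 of 12 higher, median 2.75). Of 8 markers of CD11b-type dendritic cells 3 were higher, among them Cd209a (90.4 against 3.24 RPKM) but not Cd7 (238 against 285 RPKM). Of the other lists, limma called higher 4 of 9 monocyte, 2 of 6 basophil, 1 of 6 plasma cell, 1 of 7 plasmacytoid dendritic cell, 0 of 7 neutrophil, 0 of 6 B cell, 0 of 6 NK cell and 0 of 5 erythroid and platelet genes. The median log2 difference was 2.71 for the basophil, 2.19 for the monocyte, 1.08 for the plasma cell, 0.82 for the erythroid and platelet and 0.74 for the plasmacytoid list. It was -0.009 for the NK cell, -0.70 for the B cell and -1.78 for the neutrophil list. The basophil sums were 44.0 to 1253 RPKM in positive and 3.49 to 34.7 RPKM in negative libraries. The genes called lower were Pacsin1 of the plasmacytoid and Eomes of the NK cell list, named after their values were seen. The markers Clec10a, Clec4a4, Mcpt8 and Fcer1a were at 0 in some library, and none was at 0 in every library of a group. Over all 11946 genes tested, those that reached 1 RPKM in 4 or more libraries, the median log2 difference was -0.11. The part of these cells in the members' values was not tested, and bulk RNA cannot tell more cells of a type from more RNA per cell.

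Every member was far higher in the positive library of each pool, and no positive library overlapped a negative one. The same complete separation held for 4.61% of all genes tested, and since the members were chosen for this difference nothing is read from it. Differences are given as log2(RPKM + 1), positive minus negative, averaged over the 4 pools, a scale that understates the change of low genes.

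**Figure D1:**
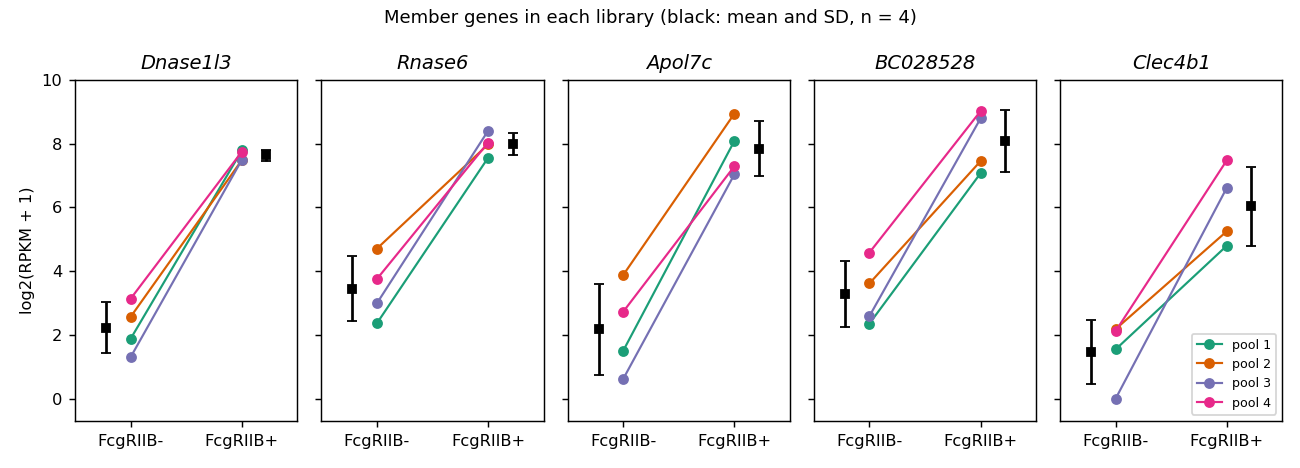
Level of the 5 member genes as log2(RPKM + 1) in FcgRIIB-negative and FcgRIIB-positive libraries; coloured points are libraries, lines join the libraries of 1 pool of spleens, and black squares with bars are the mean and SD of 4 libraries. All 4 lines rise for each gene, and the positive libraries lie closest together for Dnase1l3 and widest apart for Clec4b1.

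Dnase1l3, the chromatin-digesting nuclease, was at 219, 178, 179 and 214 RPKM in positive pools 1 to 4 and at 2.68, 4.92, 1.47 and 7.78 RPKM in the negative ones. It had the narrowest spread of the members among positive libraries, with a coefficient of variation of 11.2% and a highest value 1.23 times the lowest. These levels rested on 4195 to 14464 reads in positive and 40 to 309 reads in negative libraries. The mean was 197 ± 22.2 against 4.21 ± 2.78 RPKM (SD, n = 4 each), a ratio of 46.8. Its log2 difference was 5.40, with pool values of 5.90, 4.91, 6.19 and 4.61 (SD 0.76), the fourth largest among all genes tested. In positive libraries it ranked within the top 4.59% of genes by level, and in negative libraries it was no higher than the top 46.7%.

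Rnase6, the antimicrobial ribonuclease, was at 187, 250.2, 337 and 261 RPKM in positive pools 1 to 4 and at 4.15, 25.1, 6.95 and 12.5 RPKM in negative ones. The negative library of pool 2 was the highest of its group, and the lowest positive library was still 7.46 times above it. Means were 259 ± 61.5 against 12.2 ± 9.27 RPKM (SD, n = 4 each), a ratio of 21.3, the smallest of the members. The log2 difference of 4.54 (SD of the 4 pools 0.98) ranked twelfth, just above Plbd1 at 4.53, the next gene in that order.

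Apol7c, the phagosome-linked apolipoprotein L, was at 269.5, 489, 129.9 and 155 RPKM in positive pools 1 to 4 and at 1.83, 13.7, 0.532 and 5.60 RPKM in negative ones. The deeper pools 1 and 2 were the high ones among positive libraries, with a mean of 379 RPKM against 142 RPKM in pools 3 and 4. In the negative library of pool 3 it rested on 8 reads. Means were 261 ± 164 against 5.41 ± 5.91 RPKM (SD, n = 4 each), a ratio of 48.2. The log2 difference of 5.66 (SD of the 4 pools 1.00) was the largest of the members and the second largest of all genes, after that of the basophil protease gene Mcpt8 at 5.77.

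BC028528 was at 133, 174, 442 and 517 RPKM in positive pools 1 to 4 and at 4.11, 11.2, 5.01 and 22.9 RPKM in negative ones. Here pools 3 and 4 were the high ones, at 3.12 times the mean of pools 1 and 2. Means were 316 ± 191 against 10.8 ± 8.66 RPKM (SD, n = 4 each), a ratio of 29.3 and a log2 difference of 4.80 (SD of the 4 pools 1.01). The lowest positive library was 5.82 times the highest negative one, the narrowest gap of the members.

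Clec4b1, the lectin receptor, was the lowest member, at 26.8, 37.0, 97.0 and 177 RPKM in positive pools 1 to 4. In negative libraries it was at 1.92, 3.53, 0 and 3.34 RPKM, on 27, 47, 0 and 8 reads. No read of it was seen in the negative library of pool 3, where 3 reads would have been 0.520 RPKM. Positive pools 3 and 4 stood at 4.29 times the mean of pools 1 and 2, and the coefficient of variation of 81.7% was the widest of the members. Means were 84.5 ± 69.0 against 2.20 ± 1.63 RPKM (SD, n = 4 each), a ratio of 38.4. The log2 difference of 4.57 (SD 1.71) ranged from 3.07 in pool 2 to 6.61 in pool 3, the pool with no read in the negative library.

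**Figure D2:**
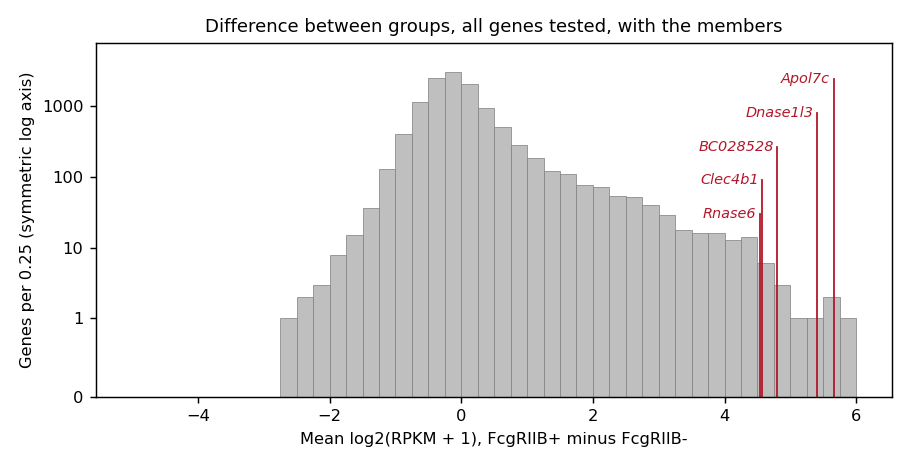
Number of genes tested (vertical, symmetric log axis) by difference between the groups in log2(RPKM + 1), positive minus negative (horizontal, bins of 0.25); red lines mark the members. The members lie between 4.54 and 5.66, and the median of all genes is -0.11.

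The order of the members by level was not the same in all positive libraries. Apol7c led in pools 1 and 2 and BC028528 led in pools 3 and 4, while Clec4b1 was lowest in pools 1, 2 and 3 and Apol7c in pool 4. By mean level the order was BC028528, Apol7c, Rnase6, Dnase1l3 and Clec4b1, in which the first 4 differed from their neighbours by less than the larger SD of each pair. The ratio of Apol7c to BC028528 moved from 2.02 and 2.82 in pools 1 and 2 to 0.29 and 0.30 in pools 3 and 4. That of BC028528 to Clec4b1 kept between 2.92 and 4.98, the steadiest ratio among the members, and that of Apol7c to Clec4b1 was the least steady, between 0.876 and 13.2. In the negative libraries each of the 5 members was higher in pools 2 and 4 than in pools 1 and 3. The sum of class II and pan dendritic cell genes did the same there, at 1963 and 1163 RPKM in pools 2 and 4 against 674 and 525 RPKM in pools 1 and 3. So did the sums of the cross-presenting markers, at 77.5 and 87.4 against 54.6 and 29.8 RPKM, and of the red pulp macrophage genes, at 390.4 and 173 against 104 and 105 RPKM. The order was not particular to these lists. It also held for the plasma cell (476 and 39.1 against 12.4 and 22.1 RPKM) and basophil sums (17.1 and 34.7 against 3.49 and 10.3 RPKM). The plasmacytoid sum had it too (398 and 339 against 154 and 323 RPKM). The neutrophil, B cell, NK cell, erythroid and platelet, and core T cell sums did not have it. Single cross-presenting markers were mixed, named here after their values were seen. Clec9a (2.39 against 0.382 RPKM), Xcr1, Itgae, Wdfy4 and Naaa were higher in negative pool 1 than in negative pool 2. Cd24a (13.2 against 35.0 RPKM), Irf8, Cadm1, Batf3 and Tlr3 were lower. The summed markers of CD11b-type dendritic cells (254, 274, 463 and 244 RPKM in pools 1 to 4) and of monocytes (1681, 2562, 3375 and 2647 RPKM) were instead highest in pool 3. Most of the first sum was Cd7 (230, 248, 453 and 207 RPKM). Most of the second was Ly6c2 (1431, 1561, 3210 and 2448 RPKM), named outside the rule. These 2 sums therefore do not show the order of the other genes in their lists.

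Exon length moved with this pool pattern. Among genes with at least 10 RPKM on average in the positive libraries, the 589 with under 1000 exon bases had a median ratio of pools 3 and 4 to pools 1 and 2 of 4.33 (quartiles 2.57 and 6.78). The ratio was 0.862 (0.573 and 1.39) for 2608 genes of at least 1000 and under 3000 bases and 0.477 (0.315 and 0.756) for 2284 genes of 3000 bases or more. BC028528 and Clec4b1, with 814 and 784 exon bases and ratios of 3.12 and 4.29, lay within the quartiles of their length class. Rnase6 (1075 bases, ratio 1.37) did so too. Apol7c (2044 bases, ratio 0.376) lay below the lower quartile of its class, and Dnase1l3 (3699 bases, ratio 0.988) above the upper quartile of its own. In the negative libraries the class under 1000 bases had a median ratio of 2.11. Differences between the groups also moved with exon length. For 648 tested genes under 1000 bases the median log2 difference was -0.12, -1.01, 0.41 and 0.28 in pools 1 to 4. For 6900 genes of 3000 bases or more it was -0.05, 0.16, 0.05 and -0.36. The part of exon length in the members' spread and in their pool differences was not tested.

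**Figure D3:**
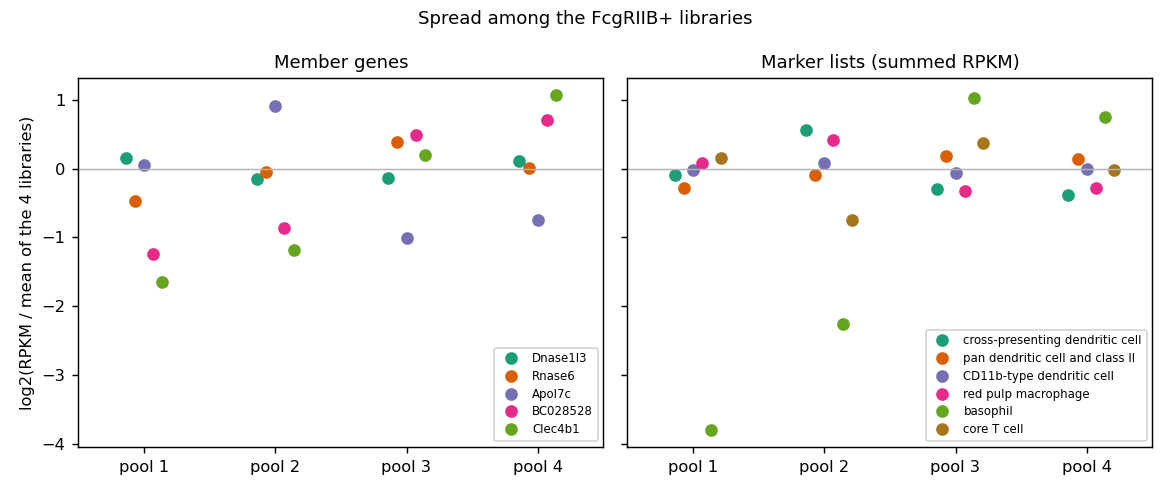
Level in each FcgRIIB-positive library relative to the mean of the 4 libraries, on a log2 scale, for the 5 member genes (left) and for the summed RPKM of 6 marker lists (right); points within a pool are offset sideways only to keep them apart. Apol7c lies opposite to BC028528 and Clec4b1, and the basophil list spans the widest range.

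Beside the members, the cross-presenting dendritic cell sum was at 0.652 times in pools 3 and 4 of the positive libraries relative to pools 1 and 2, and that of red pulp macrophages at 0.680 times. The class II and pan dendritic cell sum was at 1.28 times and that of 6 basophil genes at 13.3 times. The marker lists hold genes of mixed length, and the members' ratios were not tested against them.

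The genes most like each member were found by the root mean square distance between log2(RPKM + 1) profiles over the 8 libraries, each centred on its own mean. These profiles include the difference between groups that chose the members, so likeness is a description. Dnase1l3 was closest to A530099J19Rik (0.61), Klri1 (0.62) and Hfe (0.63). Rnase6 had the closest match of all, Hfe at 0.28, followed by the class II genes H2-Eb1 (0.33) and H2-Aa (0.37). Apol7c was closest to Gm6377 (0.42), then to Plbd1 (0.70) and Tifab (0.77). BC028528 and Clec4b1 shared Cystm1 (0.39 and 0.49) and Batf3 (0.48 and 0.61), the transcription factor that cross-presenting dendritic cells need. The other for BC028528 was Aif1 (0.56), and for Clec4b1 it was BC028528 itself (0.57), closer than Batf3. Apol7c lay farthest from these last 2 members, at 1.31 and 1.39.

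The other genes of the members' families and pathways were taken from 8 lists of 123 genes in all, written with earlier results of these data known. Of the 97 that were tested besides the members, limma called 21 (21.6%) higher and none lower (before adjustment, 1 lower with p under 0.05). In all genes tested 3.03% were called higher and 0.268% lower. With the pool of spleens as a replicate block, 36 of the 97 (37.1%) were called higher and 3 lower, beside 7.22% and 3.85% of all genes. The calls were spread unevenly over the lists. Without the negative library of pool 3 limma called 13 of them higher, and without both libraries of pool 1 also 13.

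**Figure D4:**
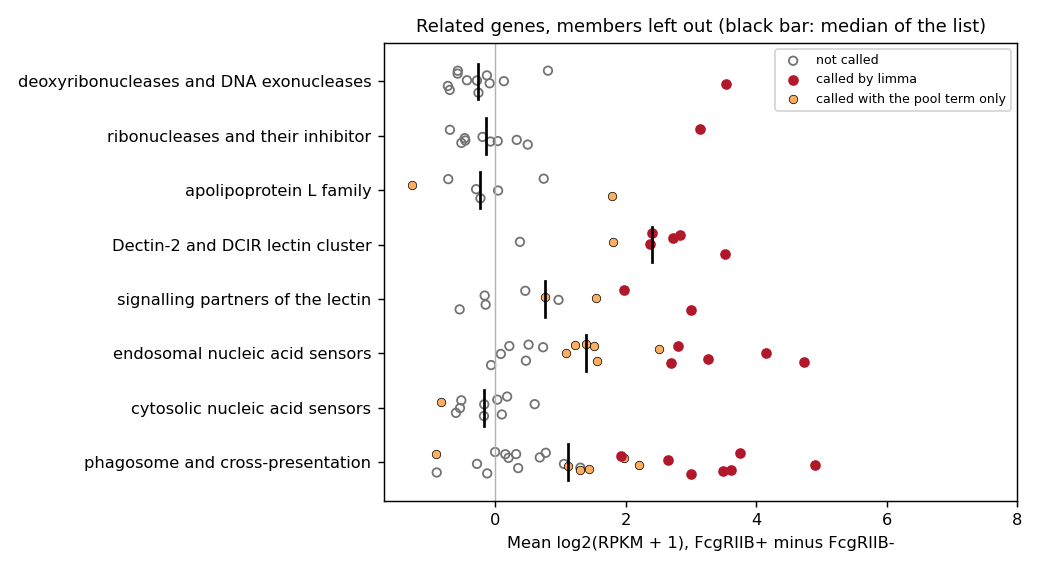
Difference between groups in log2(RPKM + 1), positive minus negative (horizontal), for each tested gene of the 8 related lists (rows), members left out; red points were called by limma, orange points only with the pool of spleens in the fit, open points were not called, and black bars are list medians. The lectin cluster lies to the right of 0, with a median of 2.40, and the nuclease, apolipoprotein L and cytosolic sensor lists have medians just below 0.

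Relatives of Dnase1l3 mostly did not pass. Of 12 tested deoxyribonucleases and DNA exonucleases only Pld4, an endolysosomal exonuclease that trims single-stranded nucleic acid, rose, from 19.2 ± 18.2 to 195 ± 90.8 RPKM (SD, n = 4 each; log2 difference 3.53, SE 0.56, limma adjusted p = 0.00429). The list's median was -0.26, beside -0.11 for all genes. Its partner exonuclease Pld3 was at 117 against 173 RPKM and Samhd1, a dNTP hydrolase, at 60.2 against 62.7 RPKM, with limma adjusted p of 0.793 and 1.00. Dnase2a, the lysosomal acid nuclease, did not pass either, at 9.86 against 5.52 RPKM (limma adjusted p = 0.341); it lies outside the naming rule and was picked once its values were known. Dnase1, Dnase1l2, Dnase2b, Trex1 and Trex2 have no value in the table, which holds genes that reached 3 RPM (reads per 1000000 reads) in at least 4 libraries.

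Relatives of Rnase6 also mostly did not pass. Of 10 tested ribonucleases and their inhibitor, only Ear2, a ribonuclease of the RNase A family in eosinophils and monocytes, rose, from 4.65 ± 4.37 to 44.0 ± 25.4 RPKM (SD, n = 4 each; log2 difference 3.14, SE 0.57, limma adjusted p = 0.00919). Of its 50-base words 41.5% occur in other genes, mainly Ear10, so its value is uncertain. Without both libraries of pool 3 its adjusted p was 0.0574. Rnh1, the cytosolic inhibitor of RNase A enzymes, was at 99.8 against 71.2 RPKM and the RNase H2 subunit Rnaseh2c at 115 against 127 RPKM, and neither passed. The median of the list was -0.13.

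None of the 7 tested apolipoprotein L relatives of Apol7c was called by limma (before adjustment, 1 had p under 0.05 in each direction), and the median was -0.22. With the replicate block Apol10b was higher, at 9.35 against 1.86 RPKM (log2 difference 1.80, blocked adjusted p = 0.0026 in limma, 0.0744 without the block), named after its value was seen. Apol7e was lower with the block, at 21.8 against 48.7 RPKM (-1.26, blocked adjusted p = 0.00147 in limma, 0.288 without it). Apol7b, at 16.9 against 26.4 RPKM, stayed uncalled (limma adjusted p = 0.662). Apol7b and Apol7e share most of their letters with each other (69.3% and 70.0% of their words), so their values are uncertain.

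Most genes of the lectin cluster around Clec4b1 rose. Of its 7 tested genes 5 did, and 6 with the replicate block, with a median log2 difference of 2.40 and all 7 above 0. Clec4n, which codes for Dectin-2, was at 49.3 ± 11.1 against 7.14 ± 5.30 RPKM (SD, n = 4 each; log2 difference 2.83, SE 0.44, limma adjusted p = 0.00382). Clec4a3, a DCIR family gene, was at 63.9 against 7.57 RPKM (3.52, limma adjusted p = 0.006), Clec4b2, the paralog of Clec4b1, at 13.9 against 1.52 RPKM (2.73, 0.00966), and Clec4a2, which codes for the inhibitory receptor DCIR, at 14.7 against 2.69 RPKM (2.37, 0.0181). The fifth was Clec4a1, named outside the rule, at 21.4 against 3.03 RPKM. Clec4a4 at 10.8 against 4.13 RPKM was called with the block (adjusted p = 0.00379, 0.222 without it in limma), and Clec4e, which codes for the lectin Mincle, was not called at 4.55 against 3.19 RPKM. The call of Clec4a2 ended without negative replicate 1 (adjusted p = 0.0522), without negative replicate 3 (0.0655) and without both libraries of pool 1 (0.0964) or pool 3 (0.0598), and that of Clec4b2 without both libraries of pool 1, 2 or 3 (0.056, 0.0611 and 0.0662) and in pools 3 and 4 alone (0.183). Clec4a4 was called without negative replicate 4 (0.0324).

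Among 9 genes of the signalling chain of such lectins, Fcer1g and Plcg2 rose. Fcer1g, the gamma chain itself, was at 907 ± 712 against 110 ± 75.4 RPKM (SD, n = 4 each; log2 difference 3.00, SE 0.72, limma adjusted p = 0.0433), and Plcg2, a phospholipase, at 33.5 against 6.90 RPKM (1.98, 0.0324). Both calls depended on single libraries. That of Fcer1g ended without positive replicate 3 or 4 or negative replicate 1, 2 or 3 (adjusted p of 0.0823, 0.0773, 0.126, 0.0597 and 0.156), and that of Plcg2 without positive replicate 1 or 2 or negative replicate 1, 2 or 3 (0.0837, 0.0698, 0.073, 0.0567 and 0.142). Without both libraries of a pool, Fcer1g was not called for pools 1, 3 and 4 (up to 0.249) and Plcg2 for any pool (up to 0.14). Plcg2 was also not called with libraries rescaled to a common sum (1.95, limma adjusted p = 0.175) or in pools 3 and 4 alone (0.119). With the replicate block 4 of the 9 were called: these 2, the kinase gene Syk at 9.04 against 2.28 RPKM (log2 difference 1.55, blocked adjusted p = 0.00252 in limma), named after its value was seen, and Prkcd at 36.0 against 20.1 RPKM (0.0355). Vav1 was at 57.3 against 60.3 RPKM.

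The endosomal list holds nucleic acid receptors together with other toll-like receptors, endosomal proteases and signalling genes. Of its 17 tested genes 5 rose (11 with the block), with a median of 1.40. Of these 5 only Tlr3 codes for a nucleic acid receptor. Tlr7, Tlr8 and Tlr13, named outside the rule, were not called without the block. With it Tlr7 and Tlr13 were called higher (blocked adjusted p = 0.0323 and 0.000447 in limma) and Tlr8 was not (0.252). Tlr11, a toll-like receptor that reads the microbial protein profilin, was at 52.3 ± 32.0 against 1.24 ± 2.02 RPKM (SD, n = 4 each; log2 difference 4.73, SE 0.56, limma adjusted p = 0.000806). Irf5, a transcription factor downstream of these receptors, was at 118 against 11.3 RPKM (3.27), Tlr3, the receptor for double-stranded RNA, at 35.2 against 0.817 RPKM (4.15) and the endosomal protease Lgmn at 57.2 against 8.05 RPKM (2.70). The fifth, Unc93b1, which carries such receptors to the endosome, was named outside the rule, at 202 against 29.5 RPKM. The cathepsins Ctss and Ctsb, at 477 against 188 and 233 against 95.2 RPKM, were called only with the block (adjusted p = 0.00155 and 0.00172 in limma). Of 10 genes of cytosolic sensing limma called none (0 at an unadjusted p under 0.05), and with the block 1 was lower: Tmem173, which codes for STING, at 51.5 against 89.2 RPKM (-0.82, blocked adjusted p = 0.0331). Zbp1 was at 52.3 against 76.6 RPKM. The median of that list was -0.17.

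Of 25 phagosome and cross-presentation genes 7 rose (12 with the block, which also called 1 lower, the proton channel gene Hvcn1, named after its value was seen), with a median of 1.12. Clec9a and Wdfy4 of this list, and Tlr3 of the endosomal one, are also among the markers of cross-presenting dendritic cells above. Clec9a, a receptor for dead cells, was at 88.3 ± 27.9 against 2.85 ± 3.52 RPKM (SD, n = 4 each; log2 difference 4.90, SE 0.52, limma adjusted p = 0.000441). Havcr2, which codes for TIM-3, a receptor for phosphatidylserine, was at 103 against 7.21 RPKM (3.62), the scavenger receptor Cd36 at 70.5 against 4.58 RPKM and Rab43, a GTPase of cross-presentation, at 35.3 against 4.70 RPKM (2.65). The NADPH oxidase subunit Cyba, at 232 against 156 RPKM, and the GTPase Rac2, at 353 against 650 RPKM, did not pass.

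The genomic neighbours of 4 members, taken from the RefSeq table of GRCm38 for the order of genes only, differed by member. None of the 4 nearest genes of the table rose around Rnase6 (Pnp2, Rnase4, Gm5622 and Mettl17, log2 differences of -0.10, 0.33, -0.28 and -0.61). Around BC028528 Mrps21, Aph1a and Anp32e did not pass, and Ciart, a clock gene, was lower, at 5.35 against 14.0 RPKM (-1.23, limma adjusted p = 0.0493). Around Apol7c, Apol7b (-0.72), Apol10a (-0.29) and Apol10b (1.80) were not called without the block. The second gene on the side of Apol10b, Gm8221, rose, at 52.6 ± 35.5 against 1.54 ± 1.65 RPKM (4.38, limma adjusted p = 0.000616), the gene that shares part of its letters with Apol7c. The 4 nearest genes to Clec4b1 were the lectins Clec4a3, Clec4a4, Clec4a2 and Clec4b2 described above. These neighbours were named for their place and not for their values.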

How the data were processed

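RNA of 1000 sorted cells per library was amplified from poly(A) with SMART-seq v4 and made into NexteraXT libraries, per the labels' protocols. The authors deposited RPKM values per gene, per the file headers, made with TopHat2 and mm9, per the submitters' processing notes. The counting step and its use of strand are not stated there. All 13204 genes of the table reach 3 RPM in at least 4 libraries; 13187 IDs matched the reference, and 21 symbols that had turned into dates were restored. Low values were whole multiples of 1 read in all values checked (tolerance 0.1 reads), which gave each library's depth.

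RPKM values are not counts, so limma 3.58.1 (R 4.3.3, trend, two-sided) was fitted by group to log2(RPKM + 1) over the 11946 genes that reached 1 RPKM in 4 or more libraries, with Benjamini-Hochberg adjustment and a threshold of 0.05. The script was tested on simulated data. The design pairs the libraries by pool of spleens, so a fit with the replicate block stands beside the fit by group. Deviations from the group means correlated within pools (0.70, 0.41, 0.56 and 0.68). Correlations between different pools are not given here. The part of depth and exon length in these values was not tested. Alternatives were other pseudocounts, filters and scalings, leaving out each library or pool, and the deeper or shallower pools alone, the last chosen after seeing the data. The 4 libraries of a group are separate pools of mice.

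The members and lists were chosen with earlier results of these data known. Named genes were the members, up to 4 called genes by smallest p and the 2 most abundant uncalled genes of each related list, the 3 most similar genes of each member, and the 2 most abundant markers of dendritic cell and macrophage lists. Other related genes given with values are marked as named outside this rule or as genomic neighbours. Gene order and promoters came from RefSeq (GRCm38), and shared words of 50 bases from GENCODE M21. The neighbours of Dnase1l3 are not reported here.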

Additional observations from a re-analysis of the deposited data

Results flagged for a closer look

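In 3 of 74 groups of 4 libraries examined among the members and the named related genes, the highest library stood apart by the Dixon criterion, where chance alone gives about 1 in 20 groups. None of them was a member. Tlr11 reached 4.24 RPKM in negative replicate 4, against 0.018 to 0.615 RPKM in the other negative libraries. Rab43 reached 64.7 RPKM in positive replicate 2, against 23.7 to 27.1 RPKM in the other positive libraries. Clec9a reached 129.9 RPKM in the same positive library, against 70.3 to 78.7 RPKM in the others.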

How the results depend on the processing

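All 5 members kept their direction under every alternative run. Leaving out a library or a pool, the log2 differences ranged from 5.10 to 5.71 for Dnase1l3, 4.17 to 4.96 for Rnase6, 5.13 to 6.22 for Apol7c, 4.33 to 5.23 for BC028528 and 3.89 to 5.07 for Clec4b1. A pseudocount of 5 RPKM lowered Dnase1l3 to 4.50, Apol7c to 4.64 and Clec4b1 to 3.32, since low negative values then weigh less, and one of 0.1 RPKM raised Clec4b1 to 5.67. Over all genes, 362 were called higher and 32 lower. The replicate block gave 863 and 460, and 36 and 3 of the 97 related genes in place of 21 and 0. With a common sum per library 220 were called higher and 8 lower, median ratios gave 19 lower and quantile normalization 60 lower. Pools 1 and 2 alone gave 875 higher and 142 lower, and 39 and 1 of the related genes; pools 3 and 4 alone gave 11 lower. Leaving out libraries gave 178 to 503 higher and 3 to 45 lower over all genes, and 13 to 23 higher and 0 lower among related genes. Without both libraries of pools 1, 2 and 3 the number called higher was 187, 235 and 203, and without those of pools 1, 2, 3 and 4 the number called lower was 9, 3, 4 and 16. Some uncalled genes changed sign: Samhd1 (0.050) and Vav1 (0.011) with quantile normalization, Samhd1 (0.031), Vav1 (0.010) and Cyba (-0.072) in pools 1 and 2, and Rnaseh2c (0.27) in pools 3 and 4. In the main fit Samhd1 was at -0.08, Vav1 at -0.14, Cyba at 0.36 and Rnaseh2c at -0.69. Samhd1 was at 0.045 without both libraries of pool 3. Without single libraries or pools, Samhd1 ranged from -0.39 to 0.18, Vav1 from -0.47 to 0.18, Cyba from -0.029 to 0.74 and Clec4e from -0.11 to 0.68. The cause of these changes was not tested. Depth limits the negative values, which rest on 0 to 47 reads for Clec4b1, 30 to 155 for BC028528 and 8 to 474 for Apol7c.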
